A study of Mus musculus with 11 samples.

Results

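The voltage-gated channels examined here are 3 sodium channel genes, Scn1a, Scn2a and Scn8a, and 4 potassium channel genes, Kcna1, Kcna2, Kcnc1 and Kcnd2. They were chosen as named genes of neuronal excitability, with no threshold on their values but with earlier results of these data known. They were matched by symbol to the Ensembl identifiers of the tables: 7 of the 53700 identifiers listed, and 7 of the 17626 genes tested. The series holds QuantSeq 3′ mRNA sequencing of cerebral cortex from 11 female mice aged 8 months, each animal 1 library. The labels give the strain as C57BL/6, while the study's methods name a 5xFAD line of mixed C57BL/6 and SJL origin and an Abi3 line on C57BL/6N. All animals were 5xFAD, a line that carries mutant human amyloid precursor protein and presenilin transgenes under a neuronal promoter and deposits amyloid, so no animal without the transgenes was compared. In 6 animals Abi3 was wildtype (Abi3_WT). In 5 animals Abi3 was knocked out in every cell by a constitutive deletion (Abi3_KO). Abi3 encodes an adaptor of an actin-regulating complex and is expressed in the brain mainly by microglia. The comparison asks whether the loss of this microglial gene in an amyloid model was accompanied by a different amount of neuronal channel transcript in the cortex.

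Voltage-gated sodium channels open on depolarization and carry the rising phase of the action potential, and voltage-gated potassium channels open later or at other voltages and bring the membrane back to rest. In cortex Scn1a (Nav1.1) is best known from fast-spiking interneurons, Scn2a (Nav1.2) and Scn8a (Nav1.6) from axon initial segments, Kcna1 and Kcna2 (Kv1.1 and Kv1.2) from axons, Kcnc1 (Kv3.1) from fast-spiking interneurons, and Kcnd2 (Kv4.2) from the dendrites of pyramidal cells. Kv1 channels open close to rest and damp repetitive firing, Kv3 channels close quickly and permit firing at high rates, and Kv4 channels inactivate quickly and dampen signals in dendrites.

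A stretch of 30 coding bases, read from the canonical transcript in the reference, shows for 5 of the genes a functional part of the channel. For Scn8a the stretch is taken from the loop between the third and the fourth domain, and the capitals mark the isoleucine, phenylalanine and methionine codons of the inactivation gate.
Scn8a: caggacATCTTCATGacagaggaacagaag
Over the whole encoded protein the aligned residues were 88.2% identical between Scn1a and Scn2a, 78.5% between Scn1a and Scn8a and 77.8% between Scn2a and Scn8a.

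For the potassium channels the stretch covers the selectivity filter, the narrow part of the pore that lets potassium pass and keeps sodium out, and the capitals mark its 5 codons. The second of these codons encodes valine in Kcna1 and Kcna2 and leucine in Kcnc1 and Kcnd2, and the other codons encode the same residues in all 4 genes.
Kcna1: atgaccACTGTGGGATACGGTgacatgtac
Kcna2: atgacaACTGTAGGCTATGGAgacatggtt
Kcnc1: atgacgACACTGGGCTATGGAgacatgtat
Kcnd2: atgacaACACTGGGGTATGGCgacatggta
The proteins of Kcna1 and Kcna2 were 81.7% identical over the aligned residues, and the other pairs of potassium channels 37.8% to 42.7%.

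In GRCm39 the gene Scn1a (ENSMUSG00000064329) lies at chr2:66101122-66271572 on the minus strand and Scn2a (ENSMUSG00000075318) at chr2:65451102-65597795 on the plus strand. The Scn8a stretch (ENSMUSG00000023033) lies within a coding exon at chr15:100931368-100931397 on the plus strand. The Kcna1 stretch (ENSMUSG00000047976) lies at chr6:126619182-126619211 on the minus strand and the Kcna2 stretch (ENSMUSG00000040724) at chr3:107012534-107012563 on the plus strand, both within the only coding exon of the gene. The Kcnc1 stretch (ENSMUSG00000058975) lies within a coding exon at chr7:46077391-46077420, and that of Kcnd2 (ENSMUSG00000060882) is split by an intron into chr6:21217399-21217412 and chr6:21714134-21714149, both on the plus strand. Scn1a and Scn2a belong to a cluster of sodium channel genes on chromosome 2 that also holds Scn3a, Scn7a and Scn9a. Kcna1 neighbours Kcna5 and Kcna6 on chromosome 6, and Kcna2 neighbours Kcna3 and Kcna10 on chromosome 3. No member lies on chromosome 11, which carries Abi3.

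QuantSeq reads come from the 3′ end of a transcript, so the counted bases are not the coding stretches above but the end of each message. Of the 50-base words in the last 500 bases of each canonical transcript, 0 were found in a transcript of another gene for any of the 7 members. The search looked for exact matches at the canonical end alone, while the reference lists up to 14 ends for a member (Scn8a). Shared sequence at the other ends was not tested. Sergef runs on the opposite strand of Kcnc1 and had a mean of 16.9 normalized counts, and counting kept the strands apart. Gm42583, annotated on the same strand within Kcnd2, had a mean of 174 normalized counts, and a read that 2 genes of 1 strand could claim is given to neither by the counting program.

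The libraries held 3202310 to 5501958 reads in genes, with a mean of 4213430 ± 958976 (SD, n = 6) for Abi3_WT against 3457200 ± 301866 (SD, n = 5) for Abi3_KO (two-sided exact permutation test, p = 0.152). Reads outside genes per 100 reads in genes were 65.9 ± 3.67 (SD, n = 6) for Abi3_WT against 54.0 ± 4.99 (SD, n = 5) for Abi3_KO (exact permutation test, p = 0.00649), so this library measure moved with genotype. The deleted gene gave 10 to 38 raw Abi3 counts per Abi3_WT animal, whereas 4 Abi3_KO animals had none and the other one 2. Summed cortical excitatory neuron markers reached 13598 to 16042 and 13881 to 17529 normalized counts, while striatal markers, which are strongest in striatum and weaker in cortex, summed to 2302 to 3496 in Abi3_WT and 2257 to 3248 in Abi3_KO. With an adjusted p of 0.05 as the limit, DESeq2 called 95 of 17626 genes (0.539%), 60 of them higher and 35 lower in Abi3_KO. No label says whether animals were littermates or were processed together.

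None of the 7 channel genes passed the threshold. The count was 0 of 7 in DESeq2, beside 0.539% of all genes tested, and also 0 of 7 in edgeR's quasi-likelihood test and in limma. At an unadjusted p under 0.05 the DESeq2 fit had 1 member, Kcnc1, which was lower in Abi3_KO, beside 8.58% of all genes tested. The groups overlapped for all 7 genes, whereas they did not overlap for 1.04% of all genes tested. The median log2 fold change was -0.01 over the 7 members and -0.00 over all genes tested, and 3 members had a positive and 4 a negative value. Raw counts of the members ran from 424 to 2998 per animal. In bulk cortex a lower count can come from fewer cells of a type or from less RNA per cell, and these cannot be told apart. Levels are given below as normalized counts (reads divided by the size factor of the library), and differences as log2 fold changes of Abi3_KO over Abi3_WT.

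**Figure D1:**
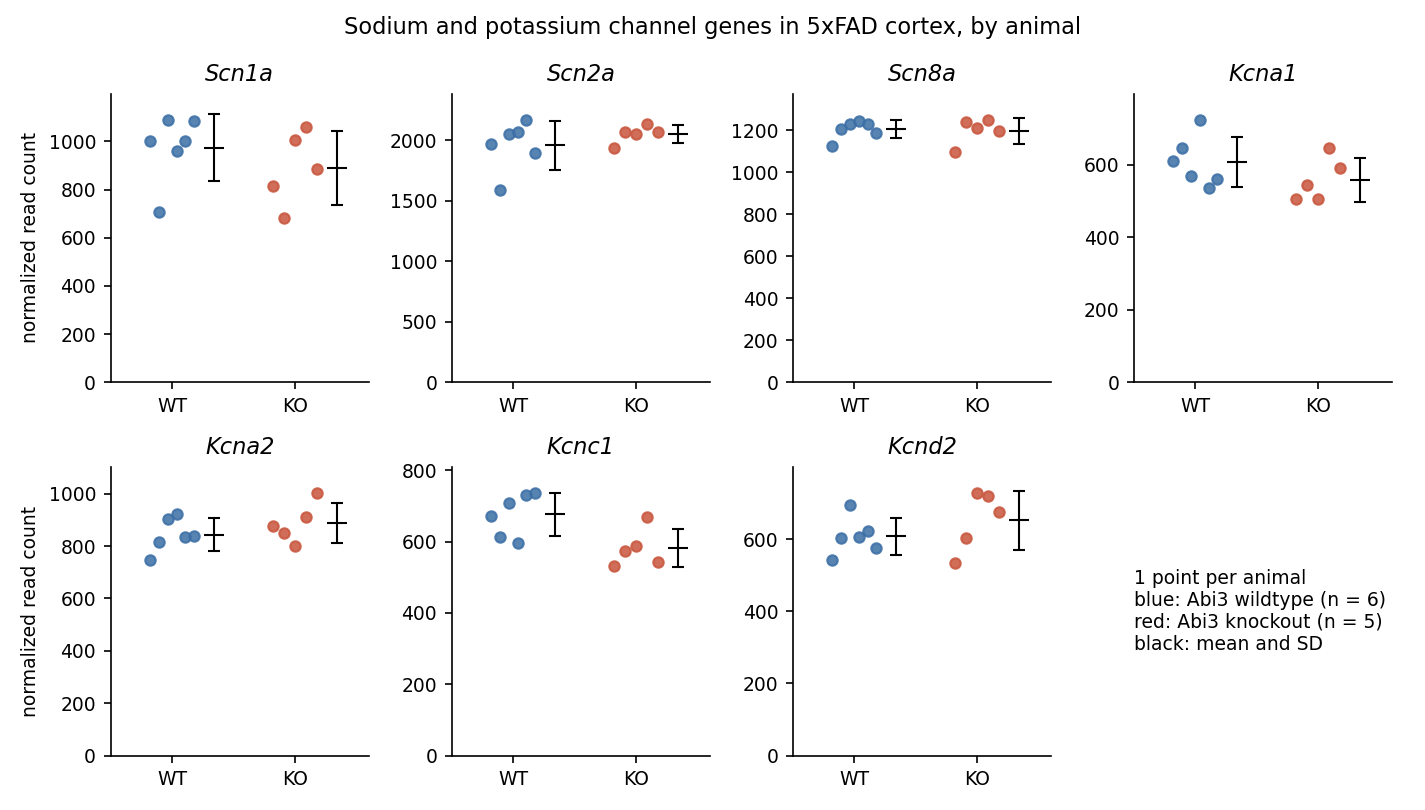
Normalized read count (vertical axis, linear from 0) of each of the 7 channel genes in every animal, with Abi3_WT (n = 6) in blue and Abi3_KO (n = 5) in red; the black bar gives the mean and the SD. The groups overlap in every panel, and for Kcnc1 4 of 5 red points lie below all blue points.

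Scn1a, which encodes the channel that sustains firing of fast-spiking interneurons, had 816, 679.8, 1005, 1062 and 884 normalized counts in the 5 Abi3_KO animals. In the 6 Abi3_WT animals it had 706 at the lowest, 1003 at the median and 1089.9 at the highest. Its low value in Abi3_WT came from replicate 2, whose count was below that of 4 of the 5 Abi3_KO animals, and in Abi3_KO from replicate 2 as well. The log2 fold change was -0.13 with a 95% interval from -0.36 to 0.09 (DESeq2 adjusted p = 0.697). It was -0.21 without Abi3_WT replicate 2 (DESeq2 unadjusted p = 0.0377, adjusted p = 0.231) and -0.048 without Abi3_KO replicate 2 (DESeq2 unadjusted p = 0.665, adjusted p = 0.936), so its size changed with single animals of either group.

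Scn2a, a sodium channel of excitatory neurons that sits in the part of the axon initial segment nearest to the cell body, had 1936, 2068, 2052, 2135 and 2071 normalized counts in Abi3_KO. The Abi3_WT animals had 1593 at the lowest, 2010.0 at the median and 2171 at the highest. All 5 Abi3_KO animals lay within the range of Abi3_WT, 4 of them above its mean. The lowest animal of the series was Abi3_WT replicate 2, which was also the lowest Abi3_WT animal for Scn1a. Its log2 fold change was 0.07 with a 95% interval from -0.07 to 0.21 (DESeq2 adjusted p = 0.764).

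Scn8a, the main sodium channel of mature axon initial segments and nodes of Ranvier, had 1096, 1239, 1210.4, 1250.2 and 1195 normalized counts in Abi3_KO. The Abi3_WT animals had 1127 at the lowest, 1218 at the median and 1244 at the highest. The groups coincided almost over their whole ranges, with the SD at 3.57% of the mean in Abi3_WT and 5.11% in Abi3_KO. Between the groups the log2 fold change was -0.01 with a 95% interval from -0.12 to 0.11, or from -8.29% to 7.82% (DESeq2 adjusted p = 0.975).

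Kcna1, an axonal channel that limits repetitive firing, had 505, 545, 506, 646 and 591 normalized counts in Abi3_KO. The Abi3_WT animals had 537 at the lowest, 589.8 at the median and 725 at the highest. Abi3_KO replicates 1 and 3 lay below all Abi3_WT animals, and replicate 4 lay above 4 of them. The log2 fold change was -0.12 with a 95% interval from -0.31 to 0.06 (DESeq2 adjusted p = 0.651).

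Kcna2, which forms channels together with Kcna1 and is the closest to it in sequence among the members, had 877, 849, 799.8, 913 and 1001 normalized counts in Abi3_KO. The Abi3_WT animals had 745 at the lowest, 837 at the median and 924 at the highest. Abi3_KO replicate 5 was the highest of all animals and Abi3_WT replicate 1 the lowest, with the other animals of both groups mixed between them. The log2 fold change was 0.07 with a 95% interval from -0.08 to 0.22 (DESeq2 adjusted p = 0.759).

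Kcnc1, whose rapid closing lets interneurons fire at high rates, had 533, 575, 586, 667 and 543 normalized counts in Abi3_KO. The Abi3_WT animals had 597 at the lowest, 690.2 at the median and 735 at the highest. All 5 Abi3_KO animals were below the mean of Abi3_WT and 4 were below every Abi3_WT animal, while replicate 4 lay inside the Abi3_WT range. The means were 676 ± 59.7 (SD, n = 6) for Abi3_WT against 581 ± 53.2 (SD, n = 5) for Abi3_KO. The log2 fold change was -0.22 with an SE of 0.09 and a 95% interval from -0.39 to -0.05, which is a difference of -14.0% with bounds of -23.6% and -3.28%. The unadjusted p was 0.0119 and the adjusted p 0.221 in DESeq2, with adjusted p-values of 0.473 in edgeR and 0.470 in limma, so the difference did not pass the threshold. The DESeq2 value is adjusted over the 6487 genes that its independent filtering kept, and with that filtering off, over 17621 genes, it was 0.402. Leaving out 1 animal at a time gave log2 fold changes from -0.27 to -0.19, and the adjusted p stayed at 0.0847 or above.

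Kcnd2, the A-type channel of pyramidal cell dendrites, had 535, 603, 727, 718 and 676 normalized counts in Abi3_KO. The Abi3_WT animals had 541 at the lowest, 604 at the median and 696 at the highest. Abi3_KO replicates 3 and 4 lay above every Abi3_WT animal and replicate 1 lay below every one. For Kcnd2 the log2 fold change was 0.10 with a 95% interval from -0.08 to 0.28 (DESeq2 adjusted p = 0.720).

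The members differed in how much they varied between animals of 1 genotype. The SD of log2(normalized count + 1) within genotype was 0.242 for Scn1a, the highest of the 7, and 0.0638 for Scn8a, the lowest. The other members lay between 0.115 for Kcna2 and 0.156 for Kcna1. Over 848 genes whose mean normalized count lay between 500 and 2100 the median of this SD was 0.133, with quartiles of 0.108 and 0.164, so Scn1a lay above and Scn8a below the middle range of genes of similar count. The widths of the fold change intervals followed the same order at their ends, widest for Scn1a and narrowest for Scn8a.

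Ratios between members within an animal do not depend on the size factor of its library, and describe whether the channels kept their proportions. Kcnc1 per Kcnd2, a fast-spiking interneuron channel over a pyramidal cell channel, was 1.12 ± 0.127 (SD, n = 6) for Abi3_WT against 0.898 ± 0.0881 (SD, n = 5) for Abi3_KO. This ratio sets the member with the lowest log2 fold change (-0.22) over that with the highest (0.10), so the choice of pair favoured a difference. Of the Abi3_KO animals, 4 lay below every Abi3_WT animal, and the highest of them, at 0.996, lay just above the lowest Abi3_WT animal, at 0.985. Kcnc1 per Kcna2 was 0.806 ± 0.0975 in Abi3_WT (SD, n = 6) and 0.658 ± 0.0826 in Abi3_KO (SD, n = 5), with 2 Abi3_KO animals below the range of Abi3_WT.

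Within the Kv1 pair, Kcna1 per Kcna2 was 0.723 ± 0.0847 (SD, n = 6) for Abi3_WT against 0.630 ± 0.0517 (SD, n = 5) for Abi3_KO. All 5 Abi3_KO animals were below the Abi3_WT mean and 3 were inside the Abi3_WT range. Among the sodium channels, Scn1a per Scn2a was 0.497 ± 0.0489 in Abi3_WT (SD, n = 6) and 0.433 ± 0.0678 in Abi3_KO (SD, n = 5). Scn8a per Scn2a was 0.620 ± 0.0704 in Abi3_WT (SD, n = 6) and 0.584 ± 0.0127 in Abi3_KO (SD, n = 5), and the wide spread in Abi3_WT came from replicate 2 with its low Scn2a count. The groups overlapped in all 5 ratios, and no test was made of them because the pairs were formed with the members' values known.

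**Figure D2:**
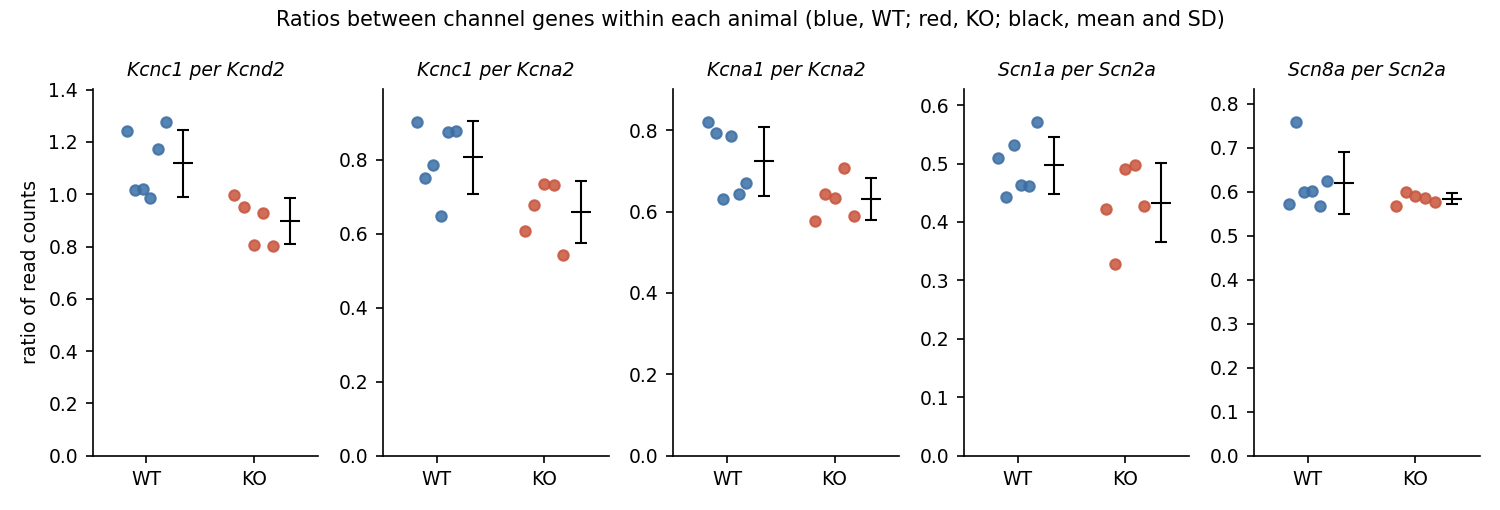
Ratio of read counts between channel genes within each animal (vertical axis, linear from 0), with Abi3_WT (n = 6) in blue, Abi3_KO (n = 5) in red, and the mean and SD in black. Kcnc1 per Kcnd2 has 4 of 5 Abi3_KO animals below all Abi3_WT animals, and Scn8a per Scn2a has a single high Abi3_WT animal at 0.757.

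The fold changes of the members depended on the reference against which the counts were scaled. The pan-neuronal list, 12 genes expressed by all neurons such as Snap25, Syt1 and Map2, had 11 genes with a positive log2 fold change, 5 of them at an unadjusted p under 0.05 and 0 past the threshold, and a median of 0.14 beside -0.00 over all genes tested. The summed pan-neuronal counts ranged from 22781 to 25621 in Abi3_WT and from 25216 to 27803 in Abi3_KO, and no pan-neuronal gene was at 0 in all animals. With size factors estimated from this list the median log2 fold change of all genes moved to -0.15 and that of the 7 members to -0.15. On that scale all 7 members were lower in Abi3_KO, from -0.04 for Kcnd2 and -0.07 for Kcna2 to -0.27 for Scn1a and -0.36 for Kcnc1, and Kcnc1 passed the threshold (DESeq2 adjusted p = 0.0383) beside 0.866% of all genes tested called lower with these size factors. The sign of Scn2a, Kcna2 and Kcnd2 turned under this scaling.

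Expressed as reads per 1000 reads of the 12 pan-neuronal genes, Kcnc1 was 28.2 ± 2.86 (SD, n = 6) for Abi3_WT against 22.4 ± 2.56 (SD, n = 5) for Abi3_KO, with 4 of 5 Abi3_KO animals below every Abi3_WT animal. Scn8a was 50.1 ± 1.83 in Abi3_WT (SD, n = 6) and 46.2 ± 2.86 in Abi3_KO (SD, n = 5), and Kcna1 25.3 ± 2.76 and 21.5 ± 2.26, each again with 4 of 5 Abi3_KO animals below every Abi3_WT animal. Among the other members Scn2a had 0 of 5, Scn1a 1 of 5 and Kcna2 1 of 5 Abi3_KO animals below every Abi3_WT animal, on a scale that moves the median of all genes downward in Abi3_KO. How often 4 of 5 occurs over all genes was not counted, on this scale or with size factors over all genes. Kcnd2 was 25.3 ± 1.65 in Abi3_WT (SD, n = 6) and 25.1 ± 3.34 in Abi3_KO (SD, n = 5). Its Abi3_KO animals lay on both sides of the Abi3_WT range, 2 below and 2 above.

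A second setting that moved the members was the share of reads outside genes, which differed between the genotypes. With this measure as a covariate in DESeq2 the log2 fold change of Kcnc1 was -0.11, and those of Scn1a (0.09) and Kcna1 (0.10) turned positive, with 0 of 7 past the threshold. Of all genes, 3 passed the threshold in that fit. The covariate and genotype moved together, and their parts in the members' values cannot be told apart in these 11 animals.

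**Figure D3:**
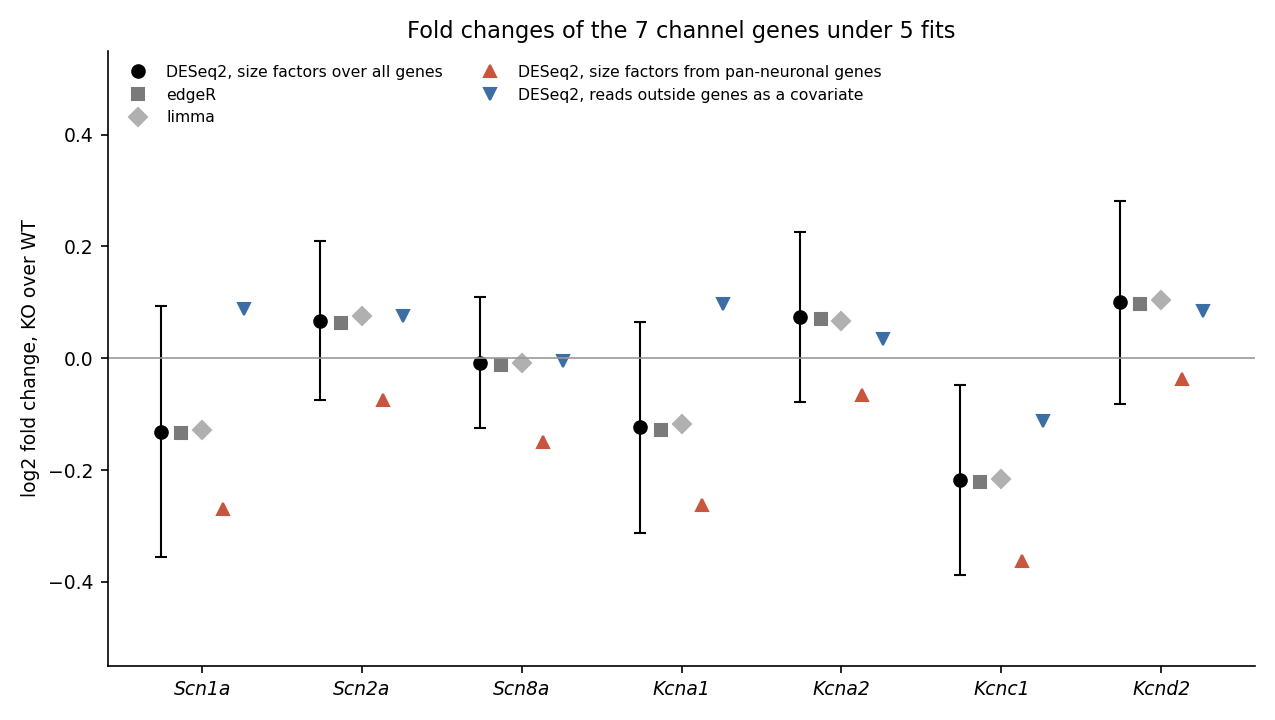
Log2 fold change of Abi3_KO over Abi3_WT (vertical axis) for each of the 7 channel genes under 5 fits, marked by symbol; the black bars give the 95% interval of the DESeq2 fit with size factors over all genes. DESeq2, edgeR and limma give nearly the same values, scaling to pan-neuronal genes lowers all 7, and the covariate moves Scn1a, Kcna1 and Kcnc1 upward.

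Across the 11 animals, after each genotype's mean was subtracted from log2(normalized count + 1), 17 of the 21 pairs of members had a positive Pearson r, with a median of 0.328 and a range from -0.267 for Kcna1 with Kcnc1 to 0.752 for Scn8a with Kcnd2. No pair of the 21 passed a Benjamini-Hochberg correction over the pairs. For Scn8a with Kcnd2 the permutation p was 0.0161 (adjusted 0.339), Spearman's rho was 0.527 (permutation p = 0.140, adjusted 0.490), and r fell to 0.226 without the 2 animals farthest from the median of Scn8a, so that relation rests on those animals. Scn1a with Kcnc1, the channel genes best known from fast-spiking interneurons, had r = 0.635 (permutation p = 0.045, adjusted 0.434) and rho = 0.80 (permutation p = 0.00453, adjusted 0.0951), and r = 0.821 without the 2 animals farthest from the median of Scn1a. Genes counted in the same library share its depth and composition, which was not taken out of these values beyond the size factors. Scn1a ran against total reads in genes with r = -0.68 (rho = -0.627), and Kcnc1 with r = -0.276 (rho = -0.373). The r of the other members with total reads lay between -0.286 for Scn2a and 0.29 for Scn8a, and these relations were not tested.

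Kcna2 followed the summed pan-neuronal count across animals with r = 0.827 (permutation p = 0.00369, adjusted over 7 such relations 0.0258) and rho = 0.782 (permutation p = 0.0097, adjusted 0.0679), and r = 0.630 without the 2 farthest animals. For Kcnc1 the same relation had r = -0.213 (permutation p = 0.550, adjusted 0.641) and rho = -0.0455 (permutation p = 0.905, adjusted 0.969). Against the summed inhibitory neuron markers, which ranged from 1620.4 to 1885 normalized counts in Abi3_WT and from 1362 to 1902 in Abi3_KO, Kcnc1 had r = 0.470 (permutation p = 0.166, adjusted 0.388) and rho = 0.636 (permutation p = 0.0466, adjusted 0.263). For Scn1a the same relation had r = 0.140 (permutation p = 0.737, adjusted 0.884) and rho = 0.40 (permutation p = 0.270, adjusted 0.472). The inhibitory sum ran against Kcna2 with r = -0.647 (permutation p = 0.0473, adjusted 0.331; rho = -0.40, permutation p = 0.253, adjusted 0.472), and that r was -0.166 without the 2 farthest animals. It ran against Kcna1 with r = -0.532 (permutation p = 0.0981, adjusted 0.343) and rho = -0.582 (permutation p = 0.0751, adjusted 0.263), so none of the 7 relations passed the correction. The 7 inhibitory markers had a median log2 fold change of -0.09, with 0 past the threshold, 3 positive and 4 negative, and none was at 0 in all animals. Their part in the lower Kcnc1 values of the Abi3_KO animals was not tested. With reads outside genes the within-genotype r of Kcnc1 was 0.307 (permutation p = 0.377, adjusted 0.879) with rho = 0.218 (permutation p = 0.538, adjusted 0.951), and that of Kcna1 0.503 (permutation p = 0.15, adjusted 0.879) with rho = 0.355 (permutation p = 0.314, adjusted 0.951). With the genotype means kept, which differ in this library measure, and animals permuted across genotypes, Kcnc1 had r = 0.693 (permutation p = 0.0235, adjusted 0.164) and rho = 0.709 (permutation p = 0.0187, adjusted 0.131), and r = 0.566 without the 2 farthest animals. Kcna1 then had r = 0.584 (permutation p = 0.0611, adjusted 0.214) and rho = 0.50 (permutation p = 0.122, adjusted 0.426). The values with genotype means kept contain the differences between the groups in the gene and in the library measure. A relation to the library measure and one to genotype cannot be told apart in them.

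The genes whose pattern across animals was most like the mean standardized profile of the 7 members, among 7773 other genes averaging 50 normalized counts or more, were Krt222 (r = 0.945), Atp2a2 (r = 0.894) and Phf2 (r = 0.879) over 11 animals with genotype means removed. For single members the most alike genes were Alcam for Scn1a (r = 0.901), Cds2 for Scn2a (r = 0.982), Bloc1s6 for Scn8a (r = 0.894), Gm10115 for Kcna1 (r = 0.936), Trim37 for Kcna2 (r = 0.945), Dhrs7 for Kcnc1 (r = 0.903) and Cab39l for Kcnd2 (r = 0.969). These are the highest of 7773 values each and are descriptions only.

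The rest of the voltage-gated channel families and their partners comprised 70 genes in 13 lists, of which 61 were tested. None of the 61 passed the threshold in DESeq2, edgeR or limma. At an unadjusted p under 0.05 there were 8 (13.1%, beside 8.58% of all genes tested), 4 higher and 4 lower in Abi3_KO. Their median log2 fold change was -0.00, with 30 positive and 31 negative values.

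Around the sodium channels, the 4 beta subunits, which anchor the channel and shape its gating, had 0 past the threshold and a median log2 fold change of -0.08, from -0.21 for Scn3b to 0.10 for Scn2b. Scn4b, the subunit of resurgent current, was at -0.10 (DESeq2 adjusted p = 0.842). Of the other sodium channel alpha genes 4 of 7 were tested, and the values of the rarely counted Scn9a (-0.49) and Scn7a (0.50) came from mean normalized counts of 37.3 and 31.1. Among the fibroblast growth factor homologous factors, which bind the channel's tail and set its inactivation, Fgf14 was at 0.26 (DESeq2 adjusted p = 0.551).

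Fgf11, of the same group, had 30.9 ± 6.02 normalized counts (SD, n = 6) for Abi3_WT against 14.3 ± 4.79 (SD, n = 5) for Abi3_KO. All 5 Abi3_KO animals, up to 19.1, were below every Abi3_WT animal, the lowest of which had 21.3. Its log2 fold change was -1.11 with a 95% interval from -1.78 to -0.45 and an unadjusted p of 0.00106 in DESeq2. DESeq2 gave it no adjusted p because of its low mean, and with independent filtering off its adjusted p was 0.152, with 0.274 in edgeR and 0.349 in limma, so it did not pass the threshold.

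Among Kv1 partners, the beta subunit Kcnab2, which carries Kv1 channels to the axon, was at -0.07 (DESeq2 adjusted p = 0.816), with 4 of 5 Abi3_KO animals below every Abi3_WT animal and the other one above every Abi3_WT animal. All 3 Kv1 beta genes had a negative log2 fold change, from -0.15 for Kcnab1 to -0.05 for Kcnab3. Of the other 6 Kv1 genes 4 were tested, and all 4 had a positive log2 fold change, of 0.02 for Kcna4 and 0.12 for Kcna6 among those with a mean count of 20 or more. Cntnap2, which holds Kcna1 and Kcna2 channels at the juxtaparanode of myelinated axons, had 458 ± 47.5 normalized counts (SD, n = 6) for Abi3_WT against 375 ± 46.8 (SD, n = 5) for Abi3_KO. Of the Abi3_KO animals 4 were below every Abi3_WT animal, and the log2 fold change was -0.28 with an adjusted p of 0.165 in DESeq2. With size factors from pan-neuronal genes it was -0.43 and passed the threshold (DESeq2 adjusted p = 0.0335).

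The other genes of axon initial segments and juxtaparanodes ran up to 0.18 for Sptbn4. Cntn1, a partner of Cntnap1 at paranodes, was at 0.15 with an unadjusted p of 0.0276 and an adjusted p of 0.335 in DESeq2. Ank3, the scaffold that clusters sodium channels at the axon initial segment, was at -0.06 (DESeq2 adjusted p = 0.679).

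Close to Kcnc1 in family, the other 3 Kv3 genes did not share 1 direction, with 2 positive values and 1 negative. Kcnc2, which fast-spiking interneurons also express, was at 0.14 (DESeq2 adjusted p = 0.697), with 3 of 5 Abi3_KO animals above every Abi3_WT animal. The Kv2 gene Kcnb2 was at -0.21.

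Of the auxiliary subunits of Kcnd2 channels, Kcnip4, a calcium-binding subunit, had 129 ± 31.9 normalized counts (SD, n = 6) for Abi3_WT against 95.4 ± 15.1 (SD, n = 5) for Abi3_KO. Its log2 fold change was -0.44 (DESeq2 unadjusted p = 0.0205, adjusted p = 0.295). Kcnip4 was at -0.0855 with reads outside genes as a covariate (DESeq2 unadjusted p = 0.802). With size factors from pan-neuronal genes it was at -0.56 (DESeq2 adjusted p = 0.0862). Dpp10, a transmembrane subunit that speeds inactivation, had 480.4 ± 46.8 normalized counts for Abi3_WT (SD, n = 6) against 565 ± 34.5 for Abi3_KO (SD, n = 5), with 3 of 5 Abi3_KO animals above every Abi3_WT animal and a log2 fold change of 0.23 (DESeq2 unadjusted p = 0.00721, adjusted p = 0.178). Dpp10 was at 0.017 with reads outside genes as a covariate (DESeq2 unadjusted p = 0.911). With size factors from pan-neuronal genes it was at 0.0885 (DESeq2 unadjusted p = 0.350). Its relative Dpp6 was at -0.04 (DESeq2 adjusted p = 0.905). The other Kv4 genes, Kcnd1 and Kcnd3, were at -0.06 and 0.02.

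Among the electrically silent subunits, which modify Kv2 channels, Kcnv1 had the highest log2 fold change at a mean count of 20 or more, 0.43 (DESeq2 unadjusted p = 0.00438, adjusted p = 0.133). Kcnv1 had 210.2 ± 30.7 normalized counts (SD, n = 6) for Abi3_WT against 283 ± 65.2 (SD, n = 5) for Abi3_KO, with 4 of 5 Abi3_KO animals above every Abi3_WT animal, and it passed the threshold only when Abi3_KO replicate 1 was left out (DESeq2 adjusted p = 0.0233). With reads outside genes as a covariate Kcnv1 was at 0.0456 (DESeq2 unadjusted p = 0.861). With size factors from pan-neuronal genes it was at 0.28 (DESeq2 adjusted p = 0.284). The lowest of this group under the same limit was Kcng2, at -0.43 with a mean normalized count of 25.3, and Kcns3, at -1.07, rested on a mean of 7.64. The Kv7 genes, which carry the M-current, had values of -0.00 for Kcnq3 and 0.07 for Kcnq5. Kcnh7 was at 0.22 (DESeq2 unadjusted p = 0.0316, adjusted p = 0.350), Kcnh5 at 0.58 and Kcnh2 at -0.29, while Kcnh8, at -1.49, rested on a mean normalized count of 7.41.

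**Figure D4:**
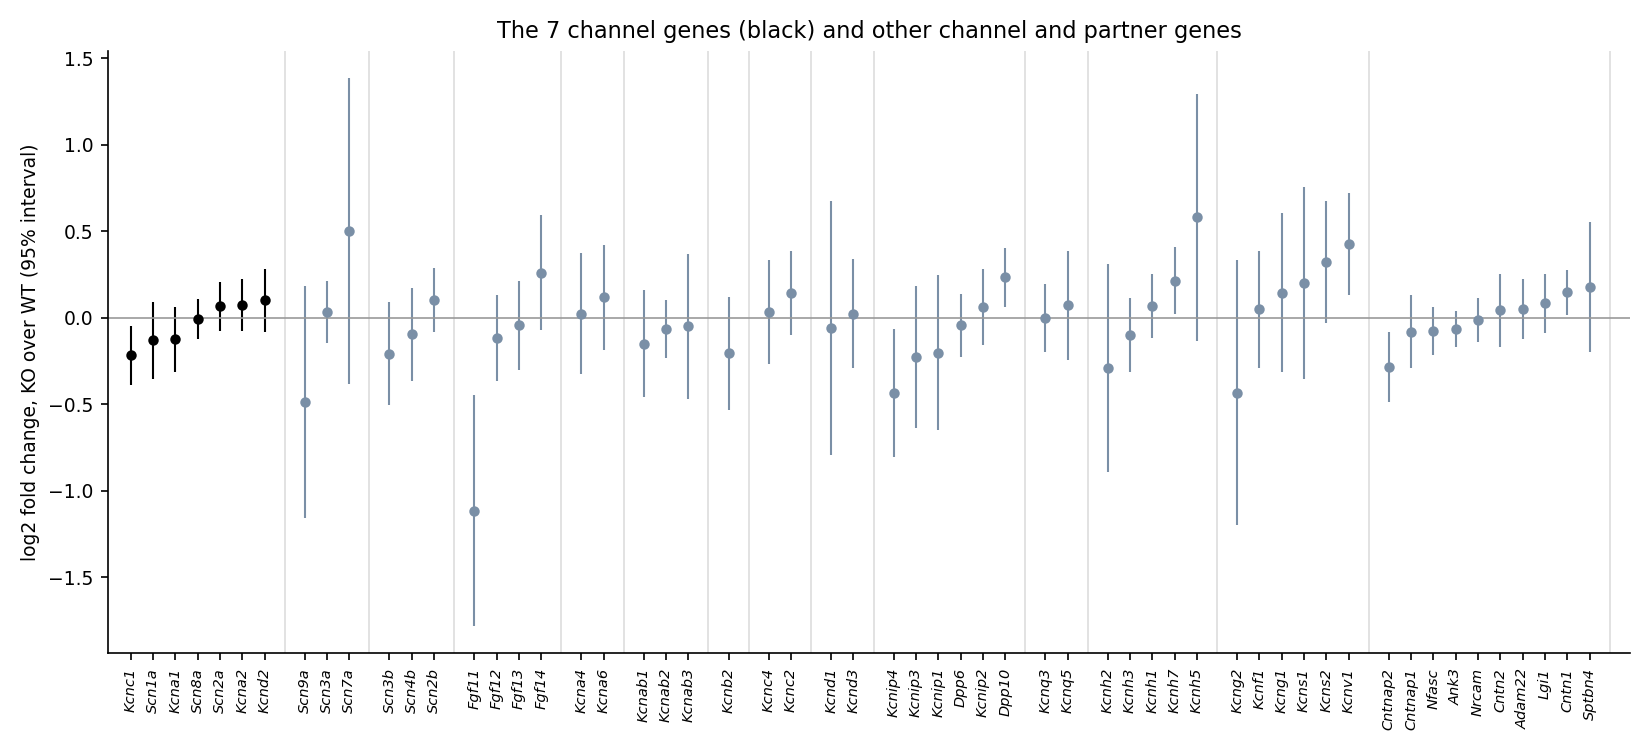
Log2 fold change of Abi3_KO over Abi3_WT with its 95% interval from DESeq2 (vertical axis), for the 7 channel genes in black and for 49 other channel and partner genes with a mean normalized count of 20 or more in grey, grouped by list between the vertical lines and ordered by value within a list. The 7 members lie between -0.22 and 0.10, and the widest intervals belong to genes with low counts.

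The cell type marker lists were read from the same fit. Of 8 microglial markers 7 had a positive log2 fold change (median 0.18), and their summed counts ranged from 1723 to 2382 in Abi3_WT and from 1937 to 2638 in Abi3_KO. All 6 oligodendrocyte markers were positive (median 0.15, summed counts 7453 to 10262 and 8158 to 11300), 5 of 6 astrocyte markers were negative (median -0.10, 11348 to 13210 and 11628 to 12866), and all 6 striatal neuron markers were negative (median -0.24). Of 7 excitatory neuron markers 6 were positive (median 0.12). The 3 oligodendrocyte precursor markers had a median of 0.35, the 5 endothelial markers of 0.04 and the 5 choroid plexus markers of 0.07, the last with summed counts from 59.4 to 3561 in Abi3_WT and from 91.9 to 2332 in Abi3_KO. None of these markers passed the threshold, and their part in the members' values was not tested.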

How the data were processed

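Cortical RNA of 11 animals (6 Abi3_WT, 5 Abi3_KO, grouped by their sample titles) was made into QuantSeq 3′ libraries. The authors trimmed the reads, aligned them with STAR (version 2.7.3a, per the submitters' processing notes) to GRCm39 and counted uniquely aligned reads per Ensembl gene and strand with HTSeq (version 0.9.1). What the authors deposited for each animal is a table of raw read counts by gene without normalization, with tallies of reads given to no gene at its end, which were kept out of library sizes and tests. The sources name no removal of PCR duplicates, and the counts are therefore reads, not molecules. The tallies of reads outside genes came to 9.21% to 14.1% of each table. No processing batch is named in the labels.

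DESeq2 (1.42.0, under R 4.3.3) was fitted to genes with 10 or more counts in total, following the study's methods, and genotype was the single factor. Results were kept where normalized counts averaged 1.5 or more. The threshold was 0.05 on the p-value after Benjamini-Hochberg adjustment over the 6487 of 17626 tested genes that independent filtering, aimed at 0.05, kept. Genes without an adjusted p after independent filtering counted as not past it. Alternatives were edgeR (version 4.0.16, quasi-likelihood), limma (version 3.58.1, voom with sample weights), other size factors, filters and settings, reads outside genes as a covariate, the replicate number as a block, and leaving out each animal. Library measures were compared by two-sided exact permutation tests over all 462 splits of the animals. Correlations were tested by 100000 permutations of animals within genotype, or across genotypes where the genotype means were kept.

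The members and the gene lists were chosen with earlier results of these data known. Named were the members, fixed partners, in each channel list every gene past the threshold and the genes with the lowest and the highest log2 fold change when normalized counts averaged 20 or more, and the genes most alike in pattern. Kcnh7, Kcnh8, Kcns3, Cntn1, and the ratios were named after their values were seen. Some genes and sequences that the lists include are not reported here. For marker lists only counts, medians and sums are given. Sequences and positions came from the GRCm39 genome with GENCODE vM39, which is more recent than the annotation used for counting and matched 98.0% of the identifiers.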

Additional observations from a re-analysis of the deposited data

Results flagged for a closer look

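Scn1a in Abi3_WT replicate 2 had 706 normalized counts, far below the next animal of its group at 961, a gap of 0.664 of the range of the 6 Abi3_WT animals, above the 95% limit of 0.625 for 6 values. The same animal was the lowest of all 11 for Scn2a, at 1593 normalized counts, and had the largest library, with 5501958 reads in genes. Of 18 groups of values examined in this way 1 stood out, where chance gives about 1 in 20 groups, so 0.9 were to be expected. Without this animal the log2 fold change of Scn1a was -0.21 (DESeq2 adjusted p = 0.231) and that of Scn2a 0.013 (DESeq2 adjusted p = 0.941), and neither passed the threshold with or without it. Without Abi3_KO replicate 2, the lowest animal of the other group, Scn1a was at -0.048 (DESeq2 adjusted p = 0.936).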

How the results depend on the processing

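The count of members past the threshold was 0 of 7 in every fit except that with size factors from pan-neuronal genes, where it was 1 (Kcnc1), and it was 0 with each of the 11 animals left out. The signs that turned among the members were, with size factors from pan-neuronal genes, those of Scn2a (-0.076), Kcna2 (-0.067) and Kcnd2 (-0.037), and with reads outside genes as a covariate those of Scn1a (0.089) and Kcna1 (0.096). Leaving out 1 animal kept the sign of every member except Scn8a, which ran from -0.025 to 0.023 on the log2 scale. It moved the log2 fold change by over 1.5 times for Scn1a (to -0.21 without Abi3_WT replicate 2, -0.20 without Abi3_KO replicate 4 and -0.048 without Abi3_KO replicate 2), Scn2a (to 0.013 without Abi3_WT replicate 2), Kcna1 (to -0.066 without Abi3_WT replicate 4), Kcna2 (to 0.042 without Abi3_WT replicate 1 and 0.029 without Abi3_KO replicate 5) and Kcnd2 (to 0.164 without Abi3_KO replicate 1, 0.063 without Abi3_KO replicate 4 and 0.058 without Abi3_KO replicate 3). Of the 70 values of the members under the other 10 alternatives, 64 kept their sign and their side of the threshold.

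The number of genes past the threshold was 95, and 37 in edgeR, 20 in limma, 161 with size factors from pan-neuronal genes, 57 without independent filtering, 3 with reads outside genes as a covariate and 33 with the replicate block over 5 pairs. Leaving out 1 animal gave 46 to 120 genes. The number fell by over 1.5 times without Abi3_WT replicates 1 (61) and 6 (48) and without Abi3_KO replicates 1 (61), 2 (46) and 5 (47). The replicate numbers come from the titles of different animals. Same-numbered animals had a mean correlation of 0.0399, below 0.1 in 4 of 5 pairs, and not every animal correlated best with its own number, so the numbers were not taken as pairs. The block left 0 of 7 members past the threshold and Kcnc1 at -0.19 (DESeq2 adjusted p = 0.521).

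Signs also turned for partner genes, none of which passed the threshold there. With size factors from pan-neuronal genes the log2 fold changes were -0.12 for Kcna4, -0.027 for Kcna6, -0.0017 for Kcnc2, -0.13 for Kcnd3, -0.061 for Kcnq5 and -0.032 for Scn2b. With the covariate they were -0.010 for Cntn1, -0.33 for Kcna4, -0.16 for Kcna6, 0.048 for Kcnab3, -0.46 for Kcnd3, 0.38 for Kcng2, 0.21 for Kcnh2 and -0.50 for Scn7a. In limma Kcna4 was at -0.018 and Kcnd3 at -0.0054, and with the replicate block Kcna4 was at -0.029, Kcnab3 at 0.033 and Kcnq3 at 0.021. With 1 animal left out the values crossed 0 for Dpp6 (-0.088 to 0.0077), Kcna4 (-0.16 to 0.13), Kcnab3 (-0.14 to 0.043), Kcnd1 (-0.23 to 0.093), Kcnd3 (-0.041 to 0.093), Kcnq3 (-0.063 to 0.048), Kcnq5 (-0.011 to 0.17), Scn4b (-0.23 to 0.016) and Sptbn4 (-0.0043 to 0.27). Other partner genes kept their sign but changed in size. Among these were Scn9a (-0.61 to -0.18), Scn7a (0.19 to 0.92), Kcng2 (-0.80 to -0.23), Kcnb2 (-0.34 to -0.12), Kcna6 (0.024 to 0.21) and Scn2b (0.029 to 0.17).

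Reads outside genes differed between genotypes by -11.9 per 100 reads in genes, by -14.0 to -10.8 with 1 animal left out, and by -2.39 per 100 reads of the whole table. The difference in reads in genes was -756225, and -937340 to -498519 with 1 animal left out. At these depths, 3 counts, the smallest amount told from none, equal 0.545 to 0.937 CPM, a floor that covers counting error only. The 95% intervals of the members reach from -23.6% for Kcnc1 to 21.6% for Kcnd2.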
